A study of Mus musculus with 25 samples.

Results

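The serpin family was measured in hepatocytes sorted from mouse liver. Its members were taken as every gene symbol of the count table that starts with Serpin, then a clade letter from a to i and digits. Symbols marked -ps were left out, and at least 5 counts summed over the 25 libraries were required. Such a name was found for 64 of 37117 symbols, of which 41 reached 5 counts, while 17 others had no count in any library. The 41 members fall into 22 genes of clade a, 8 of clade b, 5 of clades c, d, f and g, 3 of clade e, 1 of clade h and 2 of clade i. A filter on low counts left 31 of the 41 for testing, among them 17 of clade a, 5 of clade b, all 5 of clades c, d, f and g, all 3 of clade e and the 1 of clade h. The other 10 were too low to test.

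Serpins share a fold with an exposed reactive loop. In the inhibitory members a protease cuts this loop as it would a substrate, and the serpin then snaps into a new shape that traps the enzyme in a dead covalent complex. Hepatocytes secrete most of the plasma serpins: the antitrypsins and antichymotrypsins of clade a, antithrombin (Serpinc1), heparin cofactor II (Serpind1), antiplasmin (Serpinf2) and the complement inhibitor Serping1, which hold clotting, fibrinolysis and complement in check. Clade b serpins lack a classical signal peptide and act mostly inside cells. Some members inhibit nothing, such as the hormone carriers Serpina6 and Serpina7 and the collagen chaperone Serpinh1.

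The samples came from 7 groups of mice. ApoYap Dox mice (n = 3) carry the transgenes ApoE-rtTA and TRE-hYAP, which put human YAP under the control of doxycycline, and had drunk 0.2 mg/ml doxycycline with 2.5% sucrose for 1 week; ApoYap ctrl mice (n = 4) carry the same transgenes and were untreated. Lats1/2 KO mice (n = 3) are homozygous for floxed Lats1 and Lats2 and were sampled 1 week after tail vein injection of an AAV8 virus whose Cre is driven by TBG, a promoter active in hepatocytes, and Lats1/2 flox ctrl mice (n = 4) have the same floxed alleles and got no virus. C57BL/6 mice were given the doxycycline and sucrose water for 1 week (BL/6 Dox, n = 4), the Cre virus for 24 hours (BL/6 AAV-Cre, n = 3) or nothing (BL/6 ctrl, n = 4). YAP is a transcriptional coactivator that the kinases LATS1 and LATS2 keep inactive. The labels give no age, and the untreated ApoYap and floxed mice got neither doxycycline nor virus, and each agent was given to a BL/6 group. Whether each replicate is an animal of its own is not labelled, and p-values cover only the spread between the samples at hand.

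Totals ran from 8107539 to 16515330 counts per library. The YAP target Ccn2 reached 182, 177 and 161 CPM (counts scaled to library size) in ApoYap Dox libraries, against 1.62, 1.34, 2.597 and 1.20 in ApoYap ctrl, and 62.5, 135 and 149 CPM in Lats1/2 KO, against 1.32, 1.25, 1.19 and 1.28 in Lats1/2 flox ctrl. Lats1 was at 5.10, 4.79 and 2.97 CPM in Lats1/2 KO, against 13.9, 12.3, 13.0 and 14.9 CPM in Lats1/2 flox ctrl, and fell with a log2 change of −1.67 ± 0.228 (SE, adjusted p = 4.10e-06). Lats2 was at −0.13 ± 0.203 (SE, adjusted p = 0.651), and whether its 3′ tags lie outside the deleted part was not tested. Hepatocyte markers summed to 46229 to 63034 CPM in ApoYap Dox, against 59253 to 73882 in ApoYap ctrl, and to 53800.5 to 58967 CPM in Lats1/2 KO, against 58663 to 69923 in Lats1/2 flox ctrl, so hepatocyte RNA was abundant in every library. All 7 hepatocyte markers tested fell in each comparison, where 32.0% of all genes fell with YAP and 17.4% in the knockout. Macrophage, endothelial, neutrophil and cholangiocyte markers had higher sums, but not every marker was called. Of 4 neutrophil markers tested 4 rose with YAP and 2 in the knockout, and of 2 cholangiocyte markers 1 and 2 rose. Of all genes 35.0% rose with YAP and 20.6% in the knockout. No T, NK or B cell marker was tested. All 12 macrophage markers rose in each comparison, and their sum was 11603 to 20239 CPM in ApoYap Dox, against 82.8 to 199 in ApoYap ctrl, and 782 to 2083 CPM in Lats1/2 KO, against 75.8 to 241 in Lats1/2 flox ctrl. All 10 sinusoidal endothelial markers rose too, and summed to 1095 to 2079 CPM in ApoYap Dox, against 73.9 to 184 in ApoYap ctrl, and to 514 to 1337 CPM in Lats1/2 KO, against 72.1 to 231 in Lats1/2 flox ctrl. Neutrophil markers summed to 22.0 to 57.6 CPM in ApoYap Dox, against 0.257 to 1.32 in ApoYap ctrl, and to 1.27 to 5.20 CPM in Lats1/2 KO, against 0.291 to 0.573 in Lats1/2 flox ctrl, with Ly6g at 0 throughout. Cholangiocyte markers summed to 266 to 387 CPM in ApoYap Dox, against 33.0 to 45.7 in ApoYap ctrl, and to 98.2 to 323 CPM in Lats1/2 KO, against 35.4 to 69.0 in Lats1/2 flox ctrl, while T, NK and B cell markers were at most 2.74 CPM in any of these groups. In bulk samples such as these, fewer cells of a type and less RNA per cell cannot be told apart.

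In untreated cells the secreted serpins of clade a were by far the most abundant. Levels are given as CPM after TMM scaling, from 3′ tags, so they are not divided by gene length. Over the 12 untreated libraries Serpina3k averaged 13414 ± 2669 CPM and Serpina1e 11474 ± 3689 CPM (SD), next to Serpina1c at 11471 ± 3029 CPM, and these neighbours did not differ beyond their spread. Serpina1d, Serpina1b and Serpina1a followed, then Serping1 at 1472 ± 145 CPM and Serpinc1 at 1286 ± 76.3 CPM. From Serpinf2 to Serpina6, the next 9 members lay between 593 and 55.9 CPM. Below them a gap opened: the 18th member, Serpinb9, was at 7.30 ± 1.53 CPM, and every member of clades b, e, h and i stayed at or under that level on average.

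When YAP was induced, most of the secreted serpins fell and a few low ones rose. Of the 31 members tested, 20 fell and 7 rose in ApoYap Dox against ApoYap ctrl at an adjusted p under 0.05, while 32.0% of all 12970 genes tested fell and 35.0% rose. The median member had a log2 fold change of −1.72, against 0.07 over all genes. In Lats1/2 KO against Lats1/2 flox ctrl 13 members fell and 8 rose, while 17.4% of all genes fell and 20.6% rose, and the median member was at −0.48, against −0.03 over all genes. For 19 members every ApoYap Dox library lay below every ApoYap ctrl library, and for 7 every one lay above (background 32.6% and 36.7%). In the knockout 13 lay below and 7 above without overlap (background 18.8% and 20.9%). By call, 12 members fell in both comparisons, 6 rose in both, and none was called in opposite directions. With YAP alone 8 fell and 1 rose, in the knockout alone 1 fell and 2 rose, and 1 was called in neither. The share of all genes called in both comparisons was not computed.

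**Figure D1:**
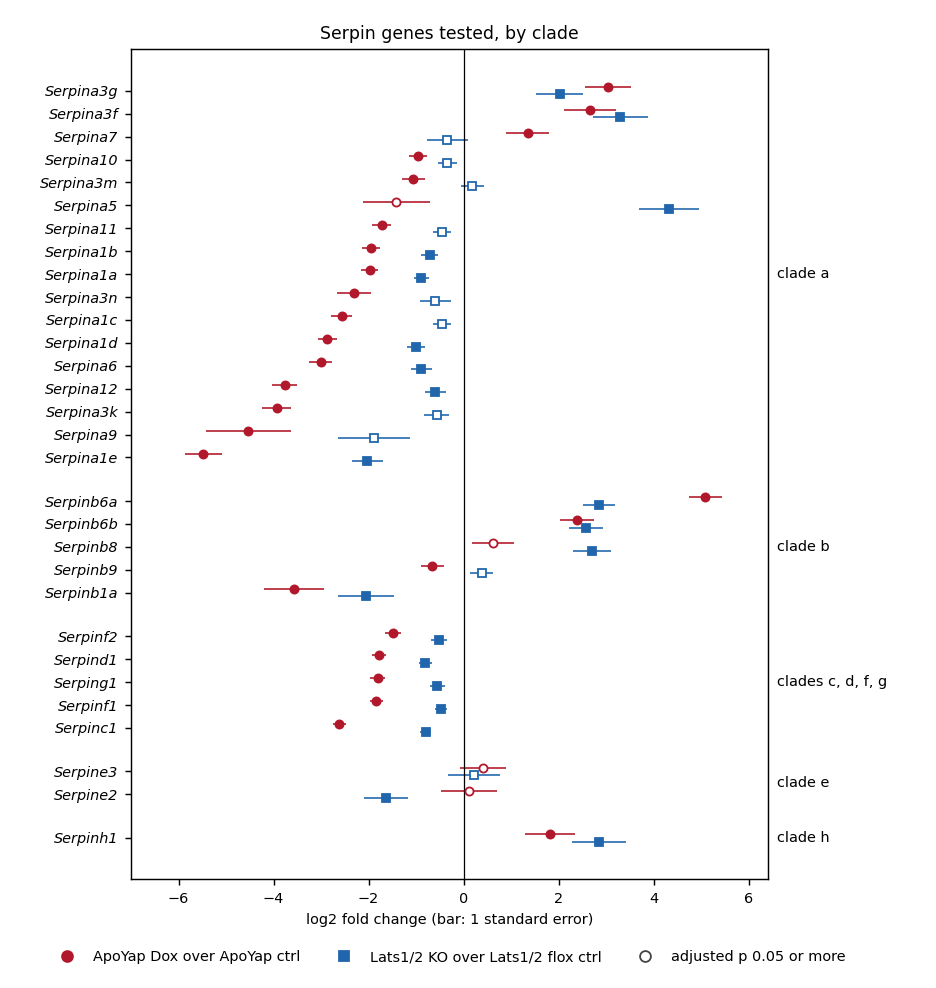
Log2 fold changes of 30 of the serpin genes tested, ApoYap Dox over ApoYap ctrl in red circles and Lats1/2 KO over Lats1/2 flox ctrl in blue squares, with bars of 1 standard error and open symbols where the adjusted p was 0.05 or more. All 5 genes of clades c, d, f and g lie left of 0 in both comparisons, and the largest rise is that of Serpinb6a, at 5.09 with YAP.

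The serpins together took a smaller share of the counts in every ApoYap Dox library than in any ApoYap ctrl library, and in every Lats1/2 KO library than in any Lats1/2 flox ctrl library. They made up 1.68% ± 0.405 of all counts in ApoYap Dox and 6.02% ± 0.305 in ApoYap ctrl (SD, n = 3 and 4). In the knockout the share was 3.30% ± 0.402 in Lats1/2 KO and 4.34% ± 0.361 in Lats1/2 flox ctrl. Each difference had a two-sided exact permutation p of 0.0571, the smallest that 3 against 4 libraries allow, and 0.13 after Benjamini-Hochberg adjustment over the 32 share tests run. These shares use total counts without TMM scaling, so they also move with the make-up of the other counts of a library.

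The single-gene plasma serpins of clades c, d, f and g fell without exception: all 5 of them were lower in both comparisons. Of all genes 32.0% fell with YAP and 17.4% in the knockout. Serpinc1 encodes antithrombin, the main inhibitor of thrombin and factor Xa. It was at 195, 237 and 176 CPM in ApoYap Dox libraries, against 1211, 1289, 1196 and 1255 CPM in ApoYap ctrl, 6.12-fold lower, with a log2 change of −2.61 ± 0.131 (SE, adjusted p = 2.21e-14). In Lats1/2 KO it was at 701, 586 and 878 CPM, against 1245, 1321, 1175 and 1284 CPM in Lats1/2 flox ctrl, a log2 change of −0.80 ± 0.121 (SE, adjusted p = 1.59e-05). Its libraries did not overlap in either comparison, and its untreated replicates were among the tightest of the family.

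Serping1, the C1 inhibitor of complement and the contact system, was at 421, 519 and 289.6 CPM in ApoYap Dox, against 1431, 1483, 1497 and 1333 CPM in ApoYap ctrl. Its log2 fold change was −1.81 ± 0.161 (SE, adjusted p = 4.34e-10) there. It was at 1139, 911 and 1143 CPM in Lats1/2 KO, against 1215, 1688, 1694 and 1631 CPM in Lats1/2 flox ctrl, with a log2 change of −0.55 ± 0.154 (SE, adjusted p = 0.00631). Serping1 of the first flox ctrl library lay well under the other three of its group, and still above all Lats1/2 KO libraries. Serpind1, heparin cofactor II, which inhibits thrombin, was at 123, 106 and 77.5 CPM in ApoYap Dox, against 357, 351, 339.7 and 352 CPM in ApoYap ctrl, and at 199, 166 and 227 CPM in Lats1/2 KO, against 305, 392, 336 and 352 CPM in Lats1/2 flox ctrl. Its log2 fold changes were −1.78 ± 0.143 (SE) with YAP and −0.81 ± 0.138 (SE) in the knockout, next to Serpinc1 at −0.80.

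The clade f pair sits side by side on chromosome 11. Serpinf1, the antiangiogenic pigment epithelium-derived factor, which is not an inhibitor, was at 74.6, 93.2 and 65.1 CPM in ApoYap Dox, against 271, 274, 276 and 286 CPM in ApoYap ctrl, and at 175, 162 and 242 CPM in Lats1/2 KO, against 269, 271, 251 and 285 CPM in Lats1/2 flox ctrl. Serpinf2, antiplasmin, was at 219, 262 and 151 CPM in ApoYap Dox, against 621, 585, 593 and 572 CPM in ApoYap ctrl, and at 448, 303 and 438 CPM in Lats1/2 KO, against 469.8, 671, 569 and 559 CPM in Lats1/2 flox ctrl. For both genes the groups overlapped in neither comparison. Serpinf1 had log2 fold changes of −1.83 ± 0.131 (SE) with YAP and −0.48 ± 0.125 (SE) in the knockout, and Serpinf2 had −1.49 ± 0.165 (SE) and −0.52 ± 0.159 (SE). The knockout falls of Serpinf1, Serpinf2 and Serping1 were small: without the second Lats1/2 KO library they were −0.36 (adjusted p = 0.0502), −0.35 (adjusted p = 0.123) and −0.45 (adjusted p = 0.0569), and with libraries scaled by total counts alone, which puts the median of all genes at 0.44 in this comparison, they were −0.015, −0.057 and −0.084. In a fit of the compared groups alone Serpinf1 and Serpinf2 were not called, at −0.42 (adjusted p = 0.0616) and −0.45 (adjusted p = 0.0775).

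**Figure D2:**
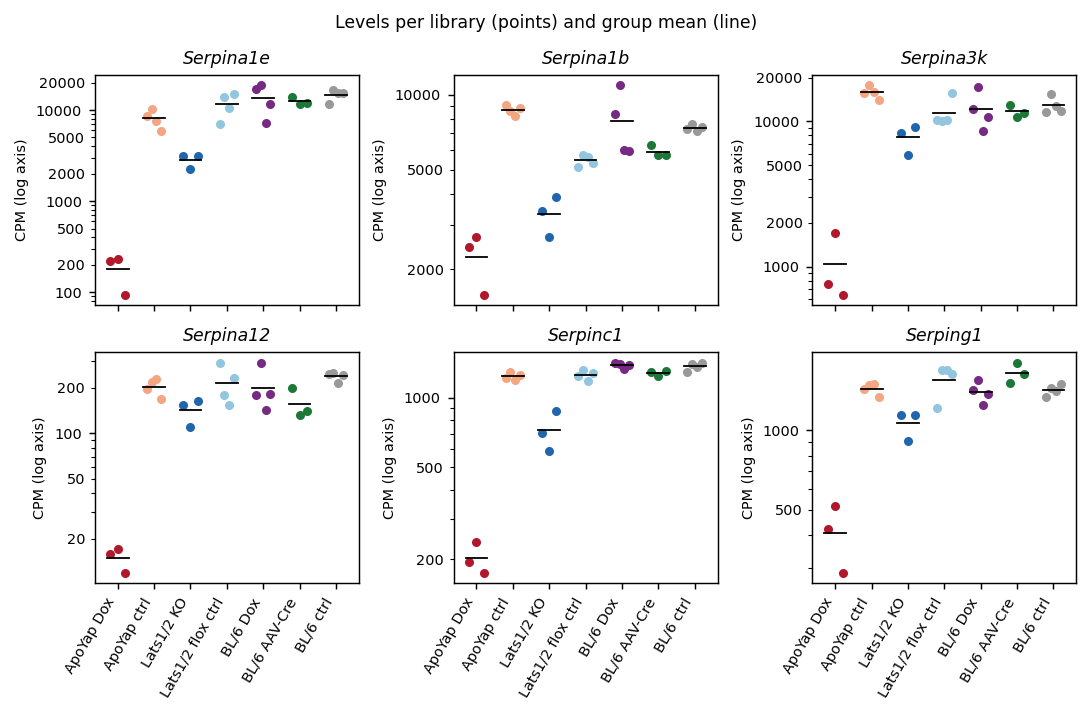
Levels of 6 secreted serpins in CPM on log axes, 1 point per library and a line at the group mean, for the 7 groups. The ApoYap Dox points lie below those of every other group in all 6 panels, and the Lats1/2 KO points lie between them and the Lats1/2 flox ctrl points for all 6 on average.

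Clade a holds the most abundant serpins, and 21 of its 22 members lie in a single cluster on chromosome 12 (GRCm38, chr12:103614786-104414329), with Serpina7 apart on the X chromosome. With YAP 13 of the 17 members tested fell, 3 rose and 1 was not called, where 32.0% of all genes fell and 35.0% rose. In the knockout 6 fell, 3 rose and 8 were not called, where 17.4% of all genes fell and 20.6% rose. Mice carry several copies of the antitrypsin gene, of which Serpina1a to Serpina1e were all expressed here. Antitrypsin is the main plasma inhibitor of neutrophil elastase. The copies are nearly alike at their promoters and differ more in the loop that meets the protease, so both stretches are shown. The promoter windows below, from RefSeq (GRCm38.p6, minus strand, 80 bases each), have in capitals the 6 bases GTTAAT, the core of the site bound by the hepatocyte factor HNF1.
Serpina1a: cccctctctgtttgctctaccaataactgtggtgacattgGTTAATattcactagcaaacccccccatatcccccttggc
Serpina1b: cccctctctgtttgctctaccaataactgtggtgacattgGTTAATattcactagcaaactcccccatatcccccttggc
Serpina1c: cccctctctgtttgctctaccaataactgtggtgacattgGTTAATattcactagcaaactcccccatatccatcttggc
Serpina1d: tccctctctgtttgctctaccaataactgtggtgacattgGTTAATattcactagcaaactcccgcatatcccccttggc
Serpina1e: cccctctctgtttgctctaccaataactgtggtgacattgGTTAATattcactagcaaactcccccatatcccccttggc
They lie at chr12:103863601-103863680, chr12:103738176-103738255, chr12:103904938-103905017, chr12:103773610-103773689 and chr12:103956936-103957015. The site starts 21 bases before the annotated start in Serpina1a, 26 in Serpina1b, 27 in Serpina1c, 16 in Serpina1d and 78 in Serpina1e. Any 2 of the windows differ at 0 to 4 of the 80 bases, and those of Serpina1b and Serpina1e are identical. GTTAAT on either strand is found in 7.10% of the 32851 RefSeq promoter windows of 250 bases before to 50 after the start, and in 9 of the 32 windows that matched members. Beside the 5 copies these were the windows of Serpina3c, Serpina7, Serpinb8 and Serpini2.

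The coding DNA of the reactive loop is given below from the GENCODE M21 transcripts, minus strand, 66 bases each, from the hinge to the end of the loop in the last coding exon. Capitals mark the 15 bases at which the 5 copies are not all alike.
Serpina1a: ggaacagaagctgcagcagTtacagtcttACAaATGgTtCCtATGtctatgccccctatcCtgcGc
Serpina1b: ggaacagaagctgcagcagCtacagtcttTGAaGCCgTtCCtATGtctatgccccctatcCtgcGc
Serpina1c: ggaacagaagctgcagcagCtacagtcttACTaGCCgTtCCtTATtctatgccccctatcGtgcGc
Serpina1d: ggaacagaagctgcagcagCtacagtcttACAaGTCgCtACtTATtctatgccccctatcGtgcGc
Serpina1e: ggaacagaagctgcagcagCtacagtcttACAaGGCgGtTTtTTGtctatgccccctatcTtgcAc
Their positions in GRCm38 are chr12:103853765-103853830, chr12:103728332-103728397, chr12:103895102-103895167, chr12:103763770-103763835 and chr12:103947108-103947173. Pairs of copies differ at 4 to 10 of the 66 bases, and the differences crowd into the middle and the end of the stretch, while its first 19 bases are the same in all. Serpina1e stands furthest from the rest, with 6 bases that no other copy has. The 3′ ends that the libraries read are closer: the last 200 bases of the longest transcripts differ at 4 to 15 positions between copies, and Serpina1e differs from the others at 13 to 15.

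Of the 5 copies Serpina1e had the lowest fold change in both comparisons. It was at 219, 233 and 93.8 CPM in ApoYap Dox, against 8627, 10366, 7489.6 and 5912 CPM in ApoYap ctrl, 44.5-fold lower, with a log2 change of −5.48 ± 0.392 (SE, adjusted p = 4.11e-11). In Lats1/2 KO it was at 3150.0, 2253 and 3142 CPM, against 7099.5, 13816, 10474 and 14937 CPM in Lats1/2 flox ctrl, a log2 change of −2.02 ± 0.328 (SE, adjusted p = 5.18e-05). It was also the copy that varied most between untreated libraries of a group. Serpina1d was at 1166, 1422 and 802 CPM in ApoYap Dox, against 8614, 8447, 7279 and 8621 CPM in ApoYap ctrl, and at 2742, 2366 and 3922 CPM in Lats1/2 KO, against 6475, 5960.3, 5796 and 5852 CPM in Lats1/2 flox ctrl. Serpina1c was at 2934, 3109.8 and 1683 CPM in ApoYap Dox, against 15208, 15952, 14028 and 15765 CPM in ApoYap ctrl, and at 6001, 5378 and 6887 CPM in Lats1/2 KO, against 8573, 7948, 8872 and 7959 CPM in Lats1/2 flox ctrl. None of these groups overlapped, although Serpina1c was not called in the knockout, at −0.45 ± 0.199 (SE, adjusted p = 0.0752).

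Serpina1b was at 2462, 2689 and 1581 CPM in ApoYap Dox, against 9069, 8623, 8177 and 8810.2 CPM in ApoYap ctrl, and at 3411, 2696 and 3896 CPM in Lats1/2 KO, against 5128, 5727, 5644 and 5346 CPM in Lats1/2 flox ctrl. Serpina1a, the lowest copy in untreated cells, was at 902, 1043 and 713 CPM in ApoYap Dox, against 3669, 3662, 3536 and 3098 CPM in ApoYap ctrl, and at 1449, 1100.5 and 1641 CPM in Lats1/2 KO, against 2188, 2801, 2639 and 2700.2 CPM in Lats1/2 flox ctrl. Both fell in both comparisons. With YAP the log2 fold changes were −1.98 for Serpina1a, −1.95 for Serpina1b, −2.56 for Serpina1c and −2.87 for Serpina1d, and in the knockout −0.89, −0.71, −0.45 and −1.0. The 5 copies were also summed, a value that no misplaced read between them can change. The log2 fold change of the sum was −2.64 ± 0.215 (SE, adjusted p = 9.73e-11) with YAP. In the knockout the sum was at −1.03 ± 0.201 (SE, adjusted p = 0.000276). With the response to the Cre virus alone taken off, the knockout value was −0.72 ± 0.277 (SE, adjusted p = 0.0586) and was not called. Of the single copies, Serpina1a and Serpina1e were then still called lower, and the others were not called.

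The make-up of the antitrypsin pool differed between groups. Serpina1e held 2.505% ± 0.506 of the Serpina1a to Serpina1e counts in ApoYap Dox and 18.4% ± 3.32 in ApoYap ctrl. It held 17.1% ± 1.49 in Lats1/2 KO and 33.5% ± 7.41 in Lats1/2 flox ctrl (SD, n = 3 and 4 in each pair). The groups of each pair did not overlap, with an exact two-sided permutation p of 0.0571 for both, the smallest possible, and 0.13 after adjustment over the 32 share tests. The shares of some other copies were higher: Serpina1b held 32.0% ± 0.398 in ApoYap Dox and 19.9% ± 1.08 in ApoYap ctrl, and Serpina1c held 36.7% ± 1.98 in Lats1/2 KO and 24.8% ± 3.64 in Lats1/2 flox ctrl. Serpina1d held less in ApoYap Dox, 16.1% ± 0.833 against 18.9% ± 1.17 in ApoYap ctrl, and 17.9% in both Lats1/2 KO and Lats1/2 flox ctrl. Serpina1c overlapped with YAP, at 36.4% ± 1.83 and 34.9% ± 1.70. As parts of the same pool, the other shares together must rise when that of Serpina1e falls. How the authors' counting treated reads that match several copies is not given in the sources used here, and the annotated span of Serpina1b in GENCODE M21 (chr12:103728156-103830373) contains Serpina1d, so the values of single copies are less certain than their sum.

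**Figure D3:**
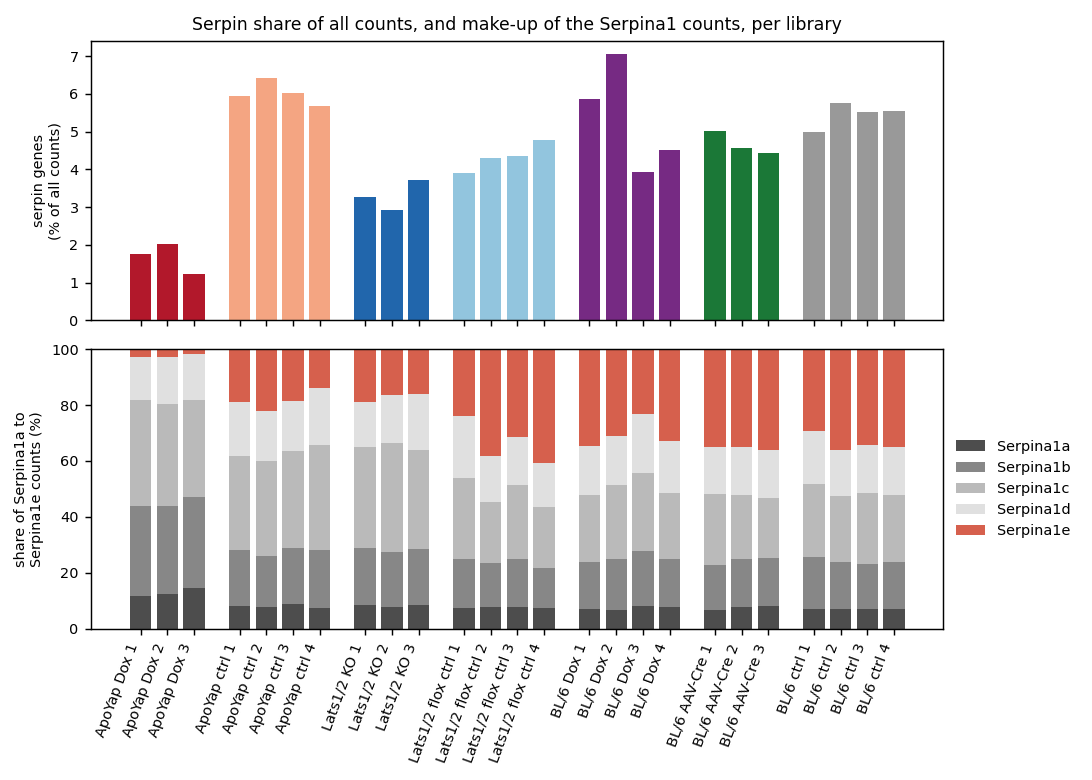
Top, serpin genes as a percentage of all counts in each of the 25 libraries, and bottom, the share of each copy in the Serpina1a to Serpina1e counts, with libraries ordered by group. The serpin share is 1.24 to 2.03% in ApoYap Dox libraries and 5.67 to 6.41% in ApoYap ctrl, and the red Serpina1e segment is 1.92 to 2.85% of the pool in ApoYap Dox and 14.0 to 22.0% in ApoYap ctrl.

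The mouse Serpina3 genes descend from a single antichymotrypsin gene and split here by direction. Serpina3k, the most abundant serpin of untreated cells, was at 757, 1714 and 640.0 CPM in ApoYap Dox, against 15527, 17757, 16019 and 14102 CPM in ApoYap ctrl, with a log2 change of −3.93 ± 0.307 (SE, adjusted p = 7.28e-11). It was at 8249.8, 5844 and 9155 CPM in Lats1/2 KO, against 10149, 10011, 10179.6 and 15537 CPM in Lats1/2 flox ctrl, and was not called, at −0.57 ± 0.264 (SE, adjusted p = 0.0958), although the groups did not overlap. Serpina3n, an acute phase gene, was at 48.8, 84.5 and 35.9 CPM in ApoYap Dox, against 249, 287, 335 and 245 CPM in ApoYap ctrl, a log2 change of −2.31 ± 0.350 (SE, adjusted p = 6.48e-06). Its knockout libraries, at 309, 192 and 212 CPM in Lats1/2 KO, against 160.0, 382, 555 and 333 CPM in Lats1/2 flox ctrl, overlapped and were not called, at −0.59 ± 0.327 (SE, adjusted p = 0.165), but without the first flox ctrl library it was −0.83 (adjusted p = 0.0244). Serpina3n was highest among the flox ctrl libraries in the third and among the BL/6 AAV-Cre libraries in the second, where Saa1, another acute phase gene, was highest too, at 3652 and 3484 CPM. Serpina3m fell with YAP, by a log2 change of −1.06 ± 0.246 (SE, adjusted p = 0.000656), and was at 0.18 ± 0.239 (SE, adjusted p = 0.584) in the knockout. Its annotated span in GENCODE M21 (chr12:104338486-104394257) contains the far more abundant Serpina3k on the same strand, so the Serpina3m values are less certain.

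Serpina3f and Serpina3g, of which Serpina3g is known from lymphoid and myeloid cells and inhibits cathepsins, were low in untreated cells and rose in both comparisons. Serpina3g was at 7.62, 6.02 and 11.1 CPM in ApoYap Dox, against 0.494, 1.01, 1.77 and 0.802 CPM in ApoYap ctrl, a log2 change of 3.05 ± 0.483 (SE, adjusted p = 4.91e-06). In Lats1/2 KO it was at 3.46, 7.18 and 4.61 CPM, against 1.87, 0.568, 0.715 and 1.77 CPM in Lats1/2 flox ctrl, a log2 change of 2.02 ± 0.488 (SE, adjusted p = 0.00196). Its groups overlapped in neither comparison. Serpina3f was at 7.66, 5.47 and 10.9 CPM in ApoYap Dox, against 0.565, 0.922, 1.87 and 1.80 CPM in ApoYap ctrl, and at 7.61, 14.8 and 6.26 CPM in Lats1/2 KO, against 1.97, 0.341, 0.834 and 0.690 CPM in Lats1/2 flox ctrl. Its log2 fold changes were 2.67 ± 0.547 (SE) and 3.30 ± 0.580 (SE), and without the first flox ctrl library the second was 3.92. The sums of macrophage and endothelial markers moved with these 2 genes, and their part in the rises was not tested. With all members of the Serpina3 group added up, Serpina3k weighed most and the log2 fold change was −3.76 ± 0.292 (SE, adjusted p = 5.80e-11) with YAP and −0.55 ± 0.254 (SE, adjusted p = 0.0927) in the knockout.

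The remaining clade a members include hormone carriers and clotting regulators. Serpina6, the corticosteroid-binding globulin, was at 8.60, 6.47 and 8.20 CPM in ApoYap Dox, against 64.4, 49.5, 66.4 and 69.9 CPM in ApoYap ctrl, and at 16.4, 18.1 and 40.1 CPM in Lats1/2 KO, against 45.5, 45.5, 52.6 and 42.3 CPM in Lats1/2 flox ctrl. It fell in both, by log2 fold changes of −3.01 ± 0.243 (SE) and −0.89 ± 0.222 (SE). The knockout call was lost in a fit of the compared groups alone, at −0.83 (adjusted p = 0.0637), and with total counts alone, at −0.44 (adjusted p = 0.11). Serpina12, vaspin, which inhibits a tissue kallikrein, was at 15.8, 17.1 and 11.9 CPM in ApoYap Dox, against 198, 219, 229.6 and 168 CPM in ApoYap ctrl, a log2 change of −3.77 ± 0.258 (SE, adjusted p = 1.16e-11). Serpina12 was at 155, 109 and 163 CPM in Lats1/2 KO, against 293, 179.8, 154 and 231 CPM in Lats1/2 flox ctrl. That change, −0.59 ± 0.222 (SE, adjusted p = 0.038), came from overlapping groups and was lost with DESeq2 (adjusted p = 0.0635), in a fit of the compared groups alone (adjusted p = 0.117) and without the first or the fourth flox ctrl library (adjusted p = 0.152 and 0.0751) or the first or the second Lats1/2 KO library (adjusted p = 0.0599 and 0.209). In BL/6 AAV-Cre against BL/6 ctrl Serpina12 was at −0.61 ± 0.223 (SE, adjusted p = 0.226), not called but without overlap. With that virus response taken off, its knockout change was 0.015 ± 0.311 (SE, adjusted p = 0.981). Serpina10, which with its cofactor protein Z inhibits factor Xa, and Serpina11 fell with YAP, with log2 fold changes of −0.96 ± 0.197 (SE) and −1.72 ± 0.200 (SE), and neither was called in the knockout with all libraries. Serpina11 was called there without the first flox ctrl or the first Lats1/2 KO library (adjusted p = 0.0318 and 0.034), and Serpina10 without the first Lats1/2 KO library (adjusted p = 0.0435).

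Serpina7, the thyroxine-binding globulin, was the one carrier that rose with YAP. It was at 5.09, 3.94 and 7.58 CPM in ApoYap Dox, against 2.40, 1.76, 2.91 and 1.60 CPM in ApoYap ctrl, a log2 change of 1.35 ± 0.449 (SE, adjusted p = 0.0111). The call rested on the third ApoYap Dox library, without which it was 1.06 (adjusted p = 0.0669). All 7 libraries of the ApoYap strain lay at or under 7.58 CPM, and the ApoYap ctrl libraries lay below every BL/6 ctrl library, at 5.11, 6.21, 6.59 and 5.07 CPM, a strain difference that was not called (adjusted p = 0.288). In the knockout it was not called, at 3.29, 5.54 and 8.43 CPM in Lats1/2 KO, against 8.01, 2.27, 12.6 and 6.71 CPM in Lats1/2 flox ctrl. Serpina9, which is expressed in germinal centre B cells, had few counts: it was at 0.0723, 0.0905 and 0 CPM in ApoYap Dox, against 0.283, 2.85, 1.66 and 1.40 CPM in ApoYap ctrl, a log2 change of −4.53 ± 0.899 (SE, adjusted p = 9.08e-05), and was not called in the knockout, at −1.88 ± 0.763 (SE, adjusted p = 0.0538), except without the second flox ctrl library or the third Lats1/2 KO library (adjusted p = 0.0329 and 0.0483).

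Serpina5 rose in the knockout and was not called with YAP. It encodes the protein C inhibitor, which in mice is made mainly in the reproductive tract and little in adult liver. It was at 15.4, 11.2 and 12.5 CPM in Lats1/2 KO, against 0.549, 0.114, 0.119 and 1.68 CPM in Lats1/2 flox ctrl, 20.0-fold higher, with a log2 change of 4.32 ± 0.630 (SE, adjusted p = 1.20e-05), or 5.56 without the fourth flox ctrl library. In ApoYap Dox it was at 0.470, 0.362 and 0.193 CPM, against 0.565, 2.35, 0.208 and 0.602 CPM in ApoYap ctrl, at −1.42 ± 0.707 (SE, adjusted p = 0.0799), and it was called lower only without the third ApoYap ctrl library, at −1.72 (adjusted p = 0.0359). The highest library outside Lats1/2 KO was at 2.35 CPM. The difference between the 2 responses was itself called, at a log2 value of 5.74 ± 0.958 (SE, adjusted p = 6.92e-05). Its promoter window holds CATTCC, the reverse complement of the TEAD motif GGAATG through which YAP acts on DNA, in capitals here, 212 bases before the start, at chr12:104100864-104100946 on the plus strand.
Serpina5: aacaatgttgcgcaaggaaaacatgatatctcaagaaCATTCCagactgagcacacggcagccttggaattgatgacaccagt
The motif, on either strand, is in 14.7% of all promoter windows and in 8 of the 32 of members, those of Serpina3b, Serpina3i, Serpina5, Serpina7, Serpina12, Serpinb1b, Serpinb6a and Serpinb10. These 8 include members that rose, fell and were not tested. Serpina7 is the one member whose window holds both motifs, and they do not overlap there.

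Clade b, the intracellular serpins, was low in untreated cells and held the largest rise. Of the 5 members tested 2 rose, 2 fell and 1 was not called with YAP, where 35.0% of all genes rose and 32.0% fell. In the knockout 3 rose, 1 fell and 1 was not called, where 20.6% of all genes rose and 17.4% fell. Serpinb6a, which inhibits trypsin-like and lysosomal proteases within cells, was at 204, 214 and 209 CPM in ApoYap Dox, against 4.17, 5.11, 8.10 and 7.42 CPM in ApoYap ctrl, 34.1-fold higher, with a log2 change of 5.09 ± 0.349 (SE, adjusted p = 6.39e-11). In Lats1/2 KO it was at 36.9, 49.5 and 26.4 CPM, against 9.11, 2.38, 4.76 and 4.44 CPM in Lats1/2 flox ctrl, a log2 change of 2.86 ± 0.344 (SE, adjusted p = 2.38e-06). The sums of macrophage and endothelial markers were also higher in ApoYap Dox and in Lats1/2 KO, and their part in the rise was not tested.

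Serpinb6b, a paralog of Serpinb6a in the same cluster on chromosome 13, was at 13.5, 7.15 and 7.53 CPM in ApoYap Dox, against 2.33, 0.922, 1.66 and 2.21 CPM in ApoYap ctrl, and at 20.5, 12.1 and 6.26 CPM in Lats1/2 KO, against 2.19, 1.93, 1.07 and 3.25 CPM in Lats1/2 flox ctrl. Its log2 fold changes were 2.39 ± 0.355 (SE) and 2.59 ± 0.358 (SE), and the difference between them was not called (adjusted p = 0.816), while that of Serpinb6a was, at −2.24 ± 0.483 (SE, adjusted p = 0.00137). With the Serpinb6 paralogs summed the values were 4.78 ± 0.287 (SE, adjusted p = 3.59e-12) and 2.78 ± 0.279 (SE, adjusted p = 1.68e-07). Serpinb8, an inhibitor of furin, rose in the knockout and was not called with YAP. It was at 14.1, 12.7 and 9.23 CPM in Lats1/2 KO, against 1.87, 1.82, 1.43 and 2.17 CPM in Lats1/2 flox ctrl, a log2 change of 2.70 ± 0.406 (SE, adjusted p = 1.45e-05), and at 1.95, 1.45 and 1.35 CPM in ApoYap Dox, against 1.62, 0.419, 0.935 and 1.10 CPM in ApoYap ctrl, a log2 change of 0.62 ± 0.441 (SE, adjusted p = 0.22). The difference between the 2 responses was called, at 2.09 ± 0.610 (SE, adjusted p = 0.0113).

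Serpinb1a, an inhibitor of neutrophil elastase and cathepsin G, fell in both. It was at 0.289, 0 and 0.193 CPM in ApoYap Dox, against 0.989, 2.18, 2.91 and 2.41 CPM in ApoYap ctrl, and at 0.346, 0.274 and 0.743 CPM in Lats1/2 KO, against 1.97, 2.38, 1.43 and 2.17 CPM in Lats1/2 flox ctrl. The log2 fold changes were −3.57 ± 0.625 (SE, adjusted p = 1.91e-05) and −2.05 ± 0.583 (SE, adjusted p = 0.00699), and they became −4.32 without the first ApoYap Dox library and −2.66 without the third Lats1/2 KO library. Its paralog Serpinb1b, too low to test, had 29 counts in the 3 ApoYap Dox libraries and none in the 4 ApoYap ctrl libraries. Set against a floor of 3 counts over the group, that is 6.26-fold higher, with the 29 counts taken as exact. Serpinb9, the inhibitor of granzyme B, was at 4.01, 4.66 and 4.49 CPM in ApoYap Dox, against 7.98, 4.61, 6.96 and 8.22 CPM in ApoYap ctrl, with overlapping groups and a log2 change of −0.66 ± 0.242 (SE, adjusted p = 0.0184) that was lost with DESeq2 (adjusted p = 0.0716) and without the first or the fourth ApoYap ctrl library or the first ApoYap Dox library. In the knockout Serpinb9 was called only without the third Lats1/2 KO library (adjusted p = 0.0398).

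**Figure D4:**
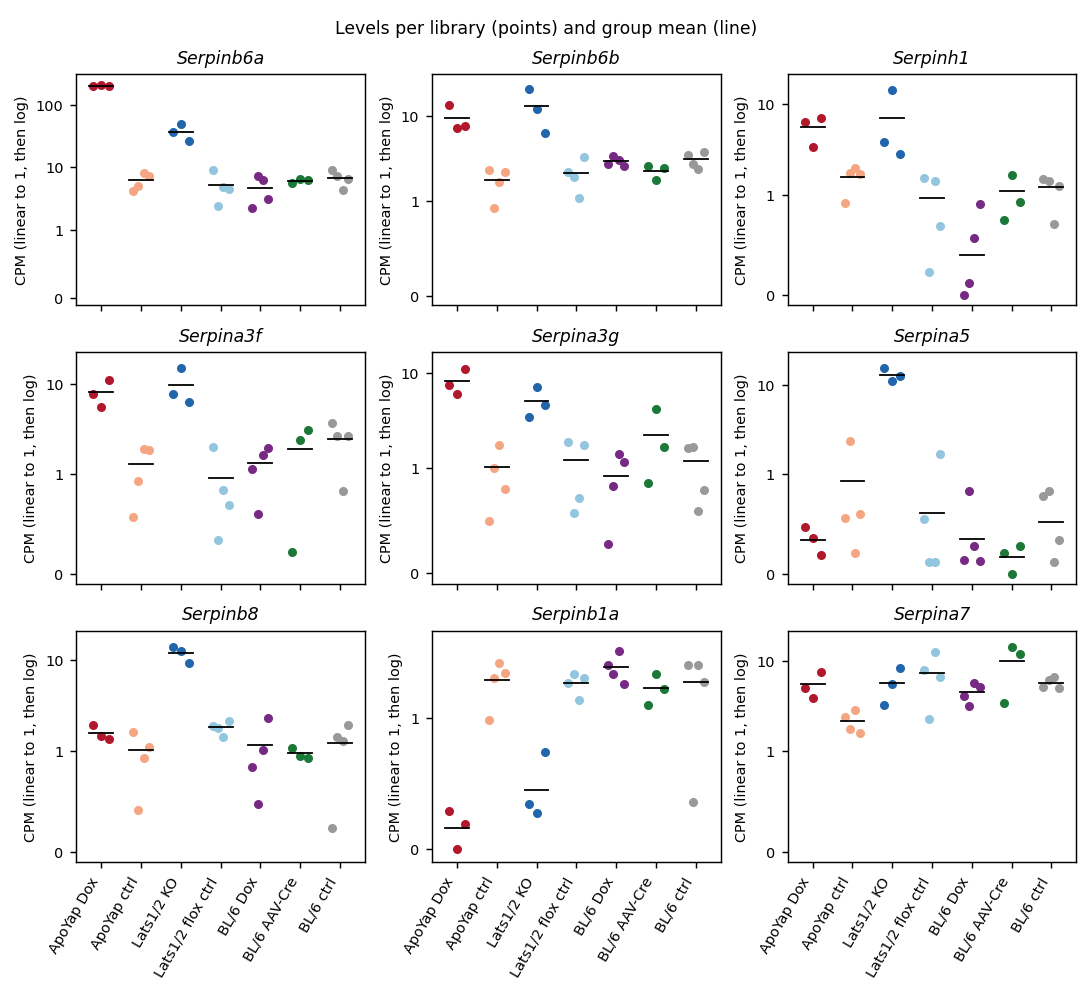
Levels of 9 serpins in CPM, linear from 0 to 1 and logarithmic above, 1 point per library and a line at the group mean, for the 7 groups. Serpinb6a lies above 200 CPM in the ApoYap Dox libraries, while Serpina5 and Serpinb8 stand apart in Lats1/2 KO and Serpinb1a lies lowest on average in ApoYap Dox and Lats1/2 KO.

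In clade e, Serpine2, protease nexin 1, which inhibits thrombin at cell surfaces, differed between strains. It was at 1.48, 1.26, 0.519 and 0.802 CPM in ApoYap ctrl, against 5.03, 8.71, 8.48 and 8.79 CPM in BL/6 ctrl, a log2 change of −2.86 ± 0.510 (SE, adjusted p = 0.00575), and was the only member called between untreated strains. It was at 1.91, 0.362 and 1.06 CPM in ApoYap Dox and was not called there. In Lats1/2 KO it was at 4.07, 1.85 and 6.58 CPM, against 15.3, 20.3, 11.2 and 5.62 CPM in Lats1/2 flox ctrl, a log2 change of −1.63 ± 0.472 (SE, adjusted p = 0.00896), with overlapping groups, and −1.28 (adjusted p = 0.0639) without the second Lats1/2 KO library or −1.57 (adjusted p = 0.0503) in a fit of the compared groups alone. Serpine3, whose function is little known, was at 0.542, 0.905 and 0.531 CPM in ApoYap Dox, against 0.777, 0.419, 0.415 and 0.301 CPM in ApoYap ctrl, and at 0.519, 0.547 and 0.477 CPM in Lats1/2 KO, against 0.1097, 0.795, 0.476 and 0.394 CPM in Lats1/2 flox ctrl. It was at most at 1.43 CPM in any library and was not called in either comparison, at 0.41 ± 0.489 (SE) and 0.21 ± 0.547 (SE).

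Serpinh1, the endoplasmic reticulum chaperone HSP47 that binds procollagen, is the sole member of clade h. It was at 6.32, 3.35 and 7.09 CPM in ApoYap Dox, against 0.918, 1.76, 1.97 and 1.70 CPM in ApoYap ctrl, a log2 change of 1.83 ± 0.527 (SE, adjusted p = 0.00382). It was at 3.81, 14.4 and 2.81 CPM in Lats1/2 KO, against 1.54, 0.227, 1.43 and 0.690 CPM in Lats1/2 flox ctrl, a log2 change of 2.85 ± 0.571 (SE, adjusted p = 0.000379), or 1.76 (adjusted p = 0.0176) without the second Lats1/2 KO library, which was far above the other 2. The groups overlapped in neither comparison. Of 19 collagen and collagen-maturation genes tested 13 rose and 4 fell with YAP, where 35.0% of all genes rose and 32.0% fell, and 10 rose and 3 fell in the knockout, where 20.6% of all genes rose and 17.4% fell. Col4a1, a basement membrane collagen, was at 71.4, 51.8 and 104 CPM in ApoYap Dox, against 11.7, 10.6, 22.1 and 17.9 CPM in ApoYap ctrl, and at 46.8, 103 and 31.7 CPM in Lats1/2 KO, against 12.6, 8.06, 7.74 and 15.8 CPM in Lats1/2 flox ctrl. In the knockout its highest library was the second, as for Serpinh1. Stellate cell and fibroblast markers summed to 197 to 335 CPM in ApoYap Dox, against 47.7 to 97.2 in ApoYap ctrl, and to 219.7 to 718 CPM in Lats1/2 KO, against 56.0 to 66.2 in Lats1/2 flox ctrl. Of the 9 markers 4 rose with YAP, where 35.0% of all genes rose, and 8 rose in the knockout, where 20.6% did. Their part in the rise of Serpinh1 was not tested.

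The proteases that these inhibitors meet in plasma fell as well. All 14 plasma serine proteases tested fell with YAP, with a median log2 fold change of −2.22, and 11 of the 14 fell in the knockout, with a median of −0.67, while 32.0% of all genes fell with YAP and 17.4% in the knockout. Factor VII (F7) was at 8.06, 10.1 and 4.73 CPM in ApoYap Dox, against 103, 105, 91.8 and 105 CPM in ApoYap ctrl, a log2 change of −3.73 ± 0.195 (SE, adjusted p = 4.55e-14), and factor XI (F11) was at −6.38 ± 0.344 (SE, adjusted p = 1.48e-13). In the knockout Hgfac, the activator of hepatocyte growth factor, was at −1.56 ± 0.170 (SE, adjusted p = 1.93e-07). Of 5 genes of plasminogen activation tested 2 rose and 2 fell with YAP, where 35.0% of all genes rose and 32.0% fell. In the knockout 1 rose and 2 fell, where 20.6% of all genes rose and 17.4% fell. Plg, the precursor of plasmin, fell by 2.55 on the log2 scale with YAP and by 0.68 in the knockout, while Plau, urokinase, which activates it, rose by 4.92 and 3.92. Plau was at 6.94, 8.10 and 6.61 CPM in ApoYap Dox, against 0, 0, 0.519 and 0.501 CPM in ApoYap ctrl.

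Inhibitors outside the family were mostly lower too: of 18 tested 14 fell and 3 rose with YAP, where 32.0% of all genes fell, and 9 fell and 2 rose in the knockout, where 17.4% fell. Itih1, a heavy chain of the inter-alpha inhibitors, was at −2.72 ± 0.161 (SE, adjusted p = 4.23e-13) with YAP and −0.74 ± 0.148 (SE, adjusted p = 0.000338) in the knockout. The macroglobulin Mug1 was at −2.59 ± 0.193 (SE, adjusted p = 2.00e-11) with YAP and at 0.15 ± 0.175 (SE, adjusted p = 0.545) in the knockout. The difference of the 2 log2 fold changes, knockout less YAP, was called above 0 for 11 of the 18 inhibitors and below 0 for 1. Of all genes 17.4% and 12.4% were so called, and the value for Mug1 is not given here. Tfpi, the tissue factor pathway inhibitor, rose in both, by 3.37 and 2.39. Of 5 granule and lysosomal proteases tested 2 rose and 1 fell with YAP, where 35.0% of all genes rose and 32.0% fell. In the knockout 1 rose and 1 fell, where 20.6% of all genes rose and 17.4% fell. Ctss, a cathepsin of macrophages, was at 991, 779.7 and 1486 CPM in ApoYap Dox, against 10.6, 16.7, 21.3 and 22.1 CPM in ApoYap ctrl, and rose in the knockout too, by 2.51 on the log2 scale. Ctsb rose with YAP, by 1.70, and Ctsl fell, with a log2 change of −0.43 ± 0.150 (SE, adjusted p = 0.0147). Ctsh was the one that fell in the knockout, at −0.41 ± 0.1399 (SE, adjusted p = 0.0225). These lists, like the members, were chosen with earlier results of these data known.

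The size of the response differed between the 2 models for most members. The difference of the 2 log2 fold changes, Lats1/2 knockout less Yap induction, was called for 21 of the 31 members, 19 above 0 and 2 below, where 29.8% of all genes were called, 17.4% above 0 and 12.4% below. All 5 of clades c, d, f and g were among the 19, with values from 0.97 for Serpind1 to 1.81 for Serpinc1, as were 12 of the 17 of clade a. Serpina12 had 3.18 ± 0.321 (SE, adjusted p = 1.07e-07) and Serpina3k 3.37 ± 0.380 (SE, adjusted p = 3.95e-07), the smallest p after Serpinc1. Serpinb6a, at −2.24 ± 0.483 (SE, adjusted p = 0.00137), and Serpina7, at −1.69 ± 0.626 (SE, adjusted p = 0.0443), were the 2 below 0. The call of Serpina7 was lost with limma voom (adjusted p = 0.071), without the filter on low counts (adjusted p = 0.0907), in a fit of the compared groups alone (adjusted p = 0.0618) and without any of several single libraries, most of all the third ApoYap Dox library, where it was −1.40 (adjusted p = 0.132). Serpinb8 was lost without the first ApoYap ctrl library (adjusted p = 0.0502), and Serpinb9 with total counts alone (adjusted p = 0.191) and without the first ApoYap Dox or the first Lats1/2 KO library (adjusted p = 0.0508 and 0.0892). For Serpine2, Serpine3 and Serpinh1 the difference was not called. Strain and virus differ between the models too and cannot be told apart from the way YAP was raised.

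Neither agent alone moved a serpin past the threshold in the edgeR fit of all 25 libraries. No member was called in BL/6 Dox or in BL/6 AAV-Cre against BL/6 ctrl, where 0.123% and 0.301% of all genes were called, and DESeq2 called none either. limma voom called none with doxycycline and 3 with the virus, and a fit of the compared groups alone called 6 with the virus. At an unadjusted p under 0.05 there were 3 of the 31 members with doxycycline and 5 with the virus, against 1543 and 1720 of all 12970 genes. With doxycycline the 3 were Serpine3 at 1.38 ± 0.518 (SE), Serpina6 at 0.46 ± 0.199 (SE) and Serpinh1 at −1.56 ± 0.716 (SE), the last opposite in sign to its change in ApoYap Dox. The smallest p with the virus was that of Serpina3m, at 0.77 ± 0.239 (SE, adjusted p = 0.151). The serpin share of all counts was 3.93 to 7.06% in BL/6 Dox and 5.00 to 5.75% in BL/6 ctrl, so the doxycycline libraries spread wider than the controls. With the virus it was 4.68% ± 0.310 in BL/6 AAV-Cre and 5.46% ± 0.322 in BL/6 ctrl (SD, n = 3 and 4), with ranges of 4.45 to 5.03% and 5.00 to 5.75% and an exact two-sided permutation p of 0.114 (0.244 adjusted over the 32 share tests). The Serpina1a to Serpina1e counts took 2.95 to 3.46% of all counts in BL/6 AAV-Cre and 3.54 to 4.01% in BL/6 ctrl, without overlap, with an exact two-sided permutation p of 0.0571, the smallest possible, and 0.13 after adjustment.

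Among single members Serpinc1 was at 1408, 1392, 1332 and 1385 CPM in BL/6 Dox and 1293, 1241 and 1300.2 CPM in BL/6 AAV-Cre, against 1289, 1401, 1352 and 1415 CPM in BL/6 ctrl. Serpina1e was at 17105, 18806, 7114 and 11528 CPM in BL/6 Dox and 13809, 11606 and 11934 CPM in BL/6 AAV-Cre, against 11706, 16505, 15234 and 15526 CPM in BL/6 ctrl. Serpina3k was at 12191, 17152, 8540.1 and 10698 CPM in BL/6 Dox and 12879, 10781 and 11443 CPM in BL/6 AAV-Cre, against 11619, 15515, 12711 and 11845 CPM in BL/6 ctrl. For these 3 genes every BL/6 library lay above every ApoYap Dox library. Serping1 was at 1246 to 1551 CPM in BL/6 Dox and 1514 to 1802 CPM in BL/6 AAV-Cre, against 1338 to 1502 CPM in BL/6 ctrl. Serpinh1 was at 0 to 0.907 CPM in BL/6 Dox and 0.747 to 1.66 CPM in BL/6 AAV-Cre, against 0.707 to 1.49 CPM in BL/6 ctrl.

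With the BL/6 response to doxycycline taken off, 26 of the 31 members were still called, 7 higher and 19 lower (background 54.1% in all, 26.7% higher and 27.4% lower). Serpinc1 was then at −2.63 ± 0.167 (SE, adjusted p = 4.97e-12), Serpina1e at −5.36 ± 0.457 (SE), Serpina1d at −2.96 ± 0.262 (SE) and Serpinf1 at −1.89 ± 0.172 (SE). With the virus response taken off, 13 were called in the knockout, 6 higher and 7 lower (background 24.4% in all, 13.0% higher and 11.4% lower), although the virus had acted for 24 hours in BL/6 and for 1 week in Lats1/2 KO. Serpinb6b was then at 3.03 ± 0.533 (SE, adjusted p = 0.000276), Serpinb6a at 3.03 ± 0.511 (SE), Serpina5 at 5.89 ± 1.19 (SE) and Serpinb8 at 2.96 ± 0.660 (SE). Between untreated strains 1 member was called in ApoYap ctrl against BL/6 ctrl (background 0.439%), which was Serpine2. None was called in Lats1/2 flox ctrl against BL/6 ctrl (background 4.12%), where DESeq2 called none and limma voom called 2. There 5 of the 31 members had an unadjusted p under 0.05, against 2422 of all 12970 genes.

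The 10 members too low to test were Serpina3a, Serpina3b, Serpina3c, Serpina3h, Serpina3i, Serpinb1b, Serpinb7, Serpinb10, Serpini1 and Serpini2. Among them GENCODE M21 annotates Serpina3h as a transcribed unprocessed pseudogene and Serpinb10 as a polymorphic pseudogene. Serpina3c had 4 counts over the ApoYap Dox libraries, against 46 over ApoYap ctrl, and 18 over Lats1/2 KO, against 3 over Lats1/2 flox ctrl, with a ratio of scaled counts of 0.0563 (95% interval 0.0147 to 0.154) in the first pair. In the knockout it was at 0.0865, 0.137 and 0.796 CPM in Lats1/2 KO, against 0, 0, 0 and 0.296 CPM in Lats1/2 flox ctrl, so most of those 18 counts came from 1 library. Tested with edgeR without the filter, Serpina3c was called lower with YAP, at −3.89 ± 0.891 (SE, adjusted p = 0.000339), and was not called in the knockout (adjusted p = 0.158). Serpinb1b was called higher with YAP in that fit, at 5.36 ± 1.53 (SE, adjusted p = 0.0043), and not in the knockout (adjusted p = 0.572). Serpinb10 had 18 counts over ApoYap Dox, against 2 over ApoYap ctrl, at 0.434, 0.226 and 0.0483 CPM in ApoYap Dox and 0, 0.0838, 0 and 0.100 CPM in ApoYap ctrl. Serpinb7 had 9 counts over ApoYap Dox, against 0 over ApoYap ctrl, 1.94-fold higher over a floor of 3 counts. Serpini1, neuroserpin, had 20 counts over ApoYap Dox, against 4 over ApoYap ctrl. In the edgeR fit without the filter Serpinb7, Serpinb10 and Serpini1 were not called with YAP (adjusted p = 0.0688, 0.171 and 0.264). Serpini2 had 10 counts in BL/6 AAV-Cre, all of them in the second library, and none in BL/6 ctrl. Serpina3a reached 13 counts in Lats1/2 KO and 2 in Lats1/2 flox ctrl, at 0.605, 0.0684 and 0.265 CPM and 0, 0, 0 and 0.197 CPM. Serpina3b, Serpina3h and Serpina3i had at most 18 counts in any group. The interval given for Serpina3c covers counting error only, and the ratios over a floor take the counts above it as exact.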

How the data were processed

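Hepatocytes were sorted from mouse livers, 500000 cells per sample, and 3′ RNA tags were sequenced with QuantSeq in 25 libraries, per the labels. The authors deposited raw counts per gene symbol. The submitters' processing notes name STAR 2.6.1d, cutadapt, FastQC and the mouse build mm10; the counting tool, its annotation, its strand setting and its treatment of reads that match several genes were not given in the sources at hand. Every column of the table matched a sample.

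Counts were tested with edgeR 4.0.16 in R 4.3.3 (quasi-likelihood fit, robust, TMM scaling, 1 mean per group over all 25 libraries). The filter filterByExpr kept 12970 genes, over which p-values were adjusted by Benjamini-Hochberg, with a threshold of 0.05. CPM were computed from the deposited counts after TMM scaling, and marker sums without it. The test was checked on simulated data. Members with too few counts were compared by summed counts with exact intervals at 95% confidence, or against a floor of 3 counts.

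The members and gene lists were chosen with earlier results of these data known. Values of every ApoYap and Lats1/2 library were given for the Serpina1 copies, for Serpina3k, Serpinc1, Serping1 and Serpinh1 and for the 4 members of each clade group with the smallest p, beside further members. The values of 1 member are not reported here, though it counts in the totals. The alternatives were DESeq2 1.42.0, limma 3.58.1 voom, other scalings, filters and thresholds, summed paralogs, a fit of the compared groups alone, a replicate block and leaving out each library. Leaving out the first and the second BL/6 Dox libraries together was chosen after seeing the data. Coordinates are from GENCODE M21 (GRCm38), which holds all 41 members, and RefSeq promoter windows (GRCm38.p6) matched 32 of them. No 2 replicates agreed within sampling noise.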

Additional observations from a re-analysis of the deposited data

Results flagged for a closer look

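6 values lay far from the other 3 libraries of their group, among 124 groups of 4 libraries checked, of which chance alone would give about 1 in 20. Serpina10 was at 163 CPM in the first Lats1/2 flox ctrl library and Serping1 at 1215 CPM in the same library, both below the rest. Serpina3k was at 15537 CPM in the fourth Lats1/2 flox ctrl library, above the rest. Serpina1d was at 7279 CPM in the third ApoYap ctrl library, Serpina3n at 169 CPM in the third BL/6 Dox library and Serpine2 at 5.03 CPM in the first BL/6 ctrl library, all below the rest.

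The response differed between the 2 models for 21 members, by the test of the difference between the 2 log2 fold changes, Lats1/2 knockout less Yap induction. In clades c, d, f and g the difference was 1.81 for Serpinc1, 1.36 for Serpinf1, 1.26 for Serping1, 0.97 for Serpinf2 and 0.97 for Serpind1. Among the antitrypsin copies it was 1.09 for Serpina1a, 1.24 for Serpina1b, 2.11 for Serpina1c, 1.87 for Serpina1d and 3.45 for Serpina1e. It was 3.37 for Serpina3k, 1.24 for Serpina3m and 1.71 for Serpina3n. Serpina5 had 5.74, Serpina6 2.12, Serpina11 1.27 and Serpina12 3.18. Serpinb8 had 2.09 and Serpinb9 1.04, while Serpina7 at −1.69 and Serpinb6a at −2.24 were below 0. The call of Serpina7 was lost with limma voom, without the filter, in a fit of the compared groups alone and without any of several single libraries (adjusted p up to 0.132).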

How the results depend on the processing

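With YAP the counts of members that rose and fell moved by less than 1.5 times under every alternative but the summing of paralogs, which lowers the number of genes and gave 4 rises in place of 7. The 13 falls of the knockout were less stable: there were 7 with total counts alone, 8 in a fit of the compared groups and 4 with a log2 fold change of at least 1, and its 8 rises became 5 with paralogs summed. Total counts alone put the median of all genes at 0.99 with YAP, 0.44 in the knockout and 0.96 net of doxycycline, and RLE scaling put it at 0.17 with YAP. Net of the virus the 13 calls became 8 with total counts alone and 8 with paralogs summed, and net of doxycycline the 26 became 17 with paralogs summed. With the virus alone voom called 3 and the compared groups 6, against 0; between untreated strains the flox mice had 2 with voom and 3 with the compared groups, against 0, and the ApoYap mice 5 with the compared groups, against 1.

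Leaving out 1 library gave 8 to 14 falls and 7 to 9 rises in the knockout, the 8 without the second Lats1/2 KO library, and 19 to 21 falls and 6 to 7 rises with YAP. The calls net of doxycycline ran from 24 to 27, those net of the virus from 10 to 16 and those of the difference between models from 19 to 23. With total counts alone, which shifts all genes of a comparison by about the same amount, values above 0 were given to Serpinb9 with YAP (0.25), to Serpina10 (0.13), Serpina11 (0.019), Serpina1c (0.0078) and Serpina7 (0.11) in the knockout and to Serpina10 net of doxycycline (0.13), each still below the median of all genes under that scaling; of these Serpinb9 with YAP and Serpina10 net of doxycycline had been called below 0. Without 1 library Serpine2 with YAP ran from −0.56 (without the first ApoYap Dox library) to 0.52, and was −0.077 without the third ApoYap ctrl library; Serpine3 in the knockout ran from −0.10 (without the first flox ctrl library) to 0.64 and Serpina7 from −0.73 to 0.034 (without the third flox ctrl library); none of these 3 was called with all libraries, and the cause was not tested.

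Deviations of same-numbered libraries from their group means had correlations from 0.052 to 0.16 with YAP and from −0.24 to 0.022 in the knockout. With so few pairs these values cannot settle whether the numbers pair the libraries. A replicate block gave 14 falls in the knockout, with Serpina11 added (−0.49, adjusted p = 0.0367), and 14 calls net of the virus, and moved no other count of calls given here. Levels under about 1 CPM rest on few counts, and the 10 lowest members did not pass the filter of the main fit.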

Other observations

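The pseudogene Serpina4-ps1, which the rule for members leaves out, had no count in any of the 3 ApoYap Dox libraries, against 3.18, 5.37, 2.597 and 3.41 CPM in ApoYap ctrl. It was at 2.51, 2.87 and 2.599 CPM in Lats1/2 KO, against 14.9, 1.70, 3.45 and 7.30 CPM in Lats1/2 flox ctrl, where the groups overlapped.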
